A study of Mus musculus with 26 samples.

Results

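The PDGF system was described from the RNA of its 6 genes, the receptors Pdgfra and Pdgfrb and the ligands Pdgfa, Pdgfb, Pdgfc and Pdgfd, out of 47730 features in the count table. The genes were chosen by name, through the Ensembl identifiers of the table, and all 6 had enough counts to be among the 16637 features tested. The libraries came from E-A14, 1 mouse mammary tumour line that expresses Her2, grown as tumours in a mammary fat pad of 6 to 8 week old FVB/N mice. Mice depleted of T cells received anti-CD4 and anti-CD8a antibodies, and control mice received rat IgG2a and rat IgG2b, in both cases from 2 weeks before implantation onward. The labels name no antibody against other lymphocytes. Her2-positive cells of each tumour were sorted into an EpCAM-negative and an EpCAM-positive fraction, and dead cells and cells carrying CD90, CD105 or CD45 were left out. There were 6 libraries of each fraction from depleted mice, taken on day 20, 6 of each from control mice, taken on day 47, and 2 of the line in culture. Treatment and day of collection therefore cannot be told apart.

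PDGFs are dimeric growth factors that act through a pair of related receptor tyrosine kinases. PDGF-A and PDGF-C act mainly through the alpha receptor, PDGF-B binds both receptors, and PDGF-D acts mainly through the beta receptor. In mammary tumours the ligands are best known as signals from cancer cells to fibroblasts and pericytes, the cells that usually carry the receptors, and receptor expression by carcinoma cells is a known companion of epithelial-mesenchymal transition (EMT). PDGF-A and PDGF-B are cut by furin-type convertases inside the cell, whereas PDGF-C and PDGF-D are released as latent dimers that need a protease outside it.

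Libraries held 17559520 to 25601999 counts in depleted and 26895429 to 38740143 in control tumours, and 27253363 and 35059744 in culture. Levels are given as CPM, the count of a gene scaled to the size of its library after TMM normalization. Rat activated Neu averaged 305 to 577 CPM in the 4 tumour groups and 552 CPM in culture. Epcam averaged 140.4 ± 83.4 CPM in depleted and 1.63 ± 0.546 CPM in control EpCAM-negative cells (SD, n = 6 each). Against the mean of the EpCAM-positive cells of the same treatment, the EpCAM-negative libraries kept 1.64% to 11.6% of the Epcam level in depleted tumours and 0.0899% to 0.202% in control tumours. In bulk RNA, fewer cells with a transcript and less of it per cell cannot be told apart.

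Both receptors and Pdgfa were higher in EpCAM-negative than in EpCAM-positive cells, under either treatment. Pdgfb was lower there under either treatment, and Pdgfc was lower there in control tumours. Pdgfrb set the treatments apart: depleted tumours had little of it in either fraction. In both fractions of control tumours it was on average the most abundant of the 6 genes per length. The plot of every library shows these patterns side by side.

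**Figure D1:**
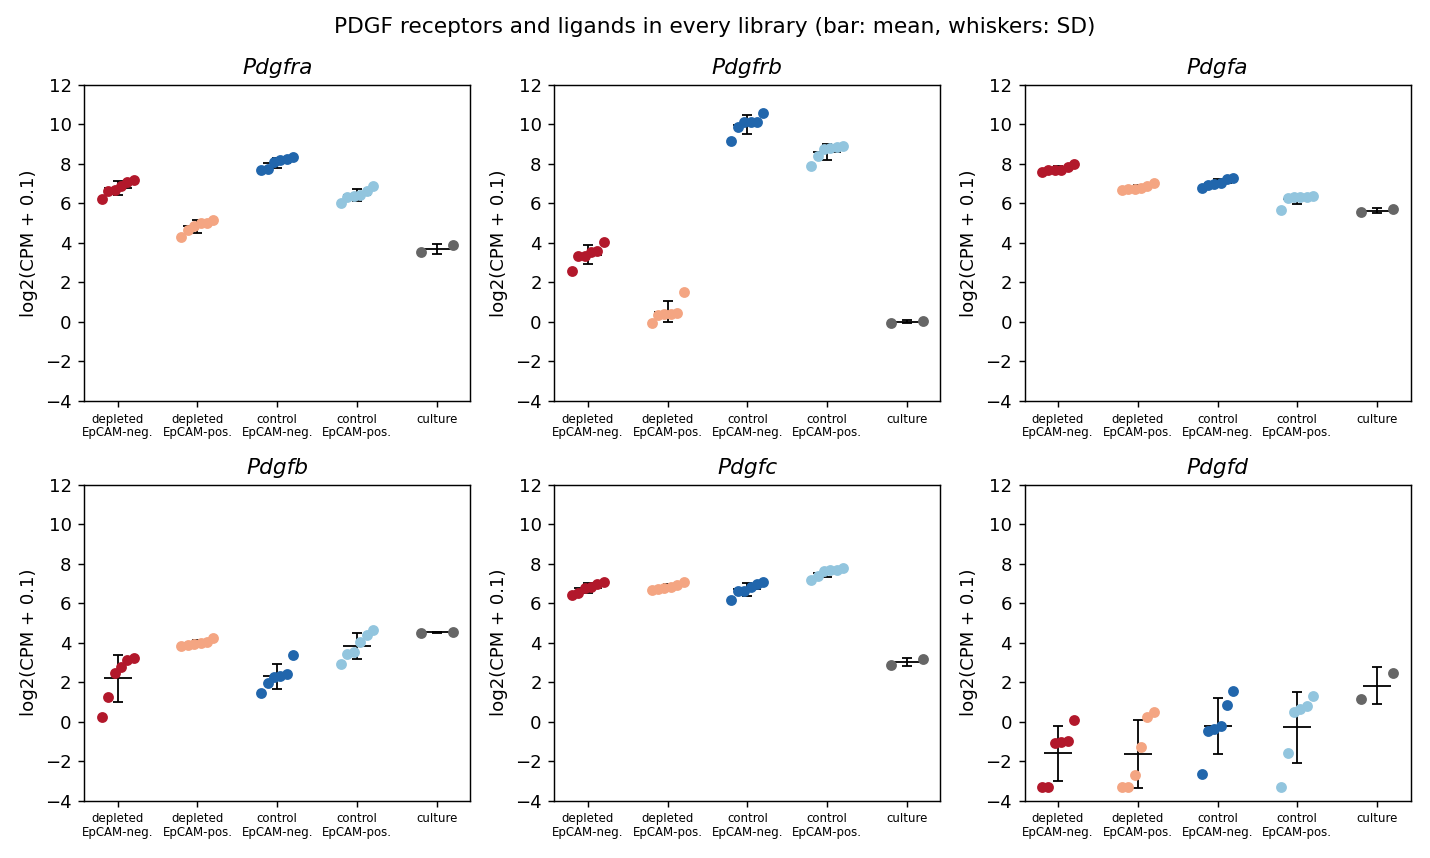
Level of each PDGF gene as log2(CPM + 0.1) in the 4 tumour groups (6 libraries each) and in culture (2 libraries); points are libraries, drawn within a group in order of value, and bars and whiskers give the mean and SD on this scale. Pdgfrb lay between 234 and 1533 CPM in the control libraries and between 0.853 and 16.4 CPM in the depleted ones, and Pdgfc had 8.78 and 7.32 CPM in culture.

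Pdgfra encodes the alpha receptor. Its lowest, median and highest levels were 75.0, 109.7 and 143 CPM in depleted EpCAM-negative cells and 19.4, 30.1 and 36.0 CPM in depleted EpCAM-positive cells. They were 207, 283 and 323 CPM in control EpCAM-negative cells and 65.0, 84.2 and 119 CPM in control EpCAM-positive cells. The culture libraries had 11.5 and 14.7 CPM. All tumour libraries thus stood above both cultures, and the only neighbouring groups that overlapped were depleted EpCAM-negative and control EpCAM-positive cells. The EpCAM-negative cells were higher by 1.95 ± 0.17 on the log2 scale in depleted tumours (SE, edgeR quasi-likelihood test, adjusted p = 1.70e-09). The same difference was 1.61 ± 0.16 in control tumours (edgeR, adjusted p = 2.75e-08). Pdgfra was also lower in depleted than in control tumours in both fractions. Its log2 difference was -1.27 ± 0.16 in EpCAM-negative cells (edgeR, adjusted p = 4.32e-07) and -1.61 ± 0.17 in EpCAM-positive cells (edgeR, adjusted p = 1.81e-08).

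Pdgfrb encodes the beta receptor, best known from fibroblasts and pericytes. The lowest, median and highest levels were 5.85, 10.8 and 16.4 CPM in depleted EpCAM-negative cells and 0.853, 1.23 and 2.79 CPM in depleted EpCAM-positive cells. They reached 568, 1113 and 1533 CPM in control EpCAM-negative cells and 234, 445 and 472 CPM in control EpCAM-positive cells. Culture had 0.866 and 0.947 CPM, which rest on 27 and 37 counts. No library of a depleted tumour came near the lowest control library, and depleted EpCAM-positive cells overlapped with culture. Pdgfrb was 97.6-fold lower in depleted than in control EpCAM-negative cells, a log2 difference of -6.61 ± 0.28 (edgeR, adjusted p = 1.61e-15). In EpCAM-positive cells it was 284.5-fold lower in depleted than in control tumours, a log2 difference of -8.15 ± 0.31 (edgeR, adjusted p = 2.84e-16). By size these differences ranked 161st and 61st among all features that were lower in depleted tumours. Between fractions, EpCAM-negative cells were higher by 2.96 ± 0.29 in depleted tumours (edgeR, adjusted p = 1.36e-08) and by 1.41 ± 0.22 in control tumours (edgeR, adjusted p = 1.64e-05), on the log2 scale.

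Markers of the cells that normally carry PDGFRB moved with Pdgfrb in part. The 16 fibroblast markers summed to 712 to 839 CPM in depleted EpCAM-negative and 656 to 859.6 CPM in depleted EpCAM-positive libraries, against 1938 to 5629 CPM in control EpCAM-negative and 1753 to 3981 CPM in control EpCAM-positive libraries. Of the 16, 5 reached 10 CPM in each depleted group, 7 in control EpCAM-negative and 6 in control EpCAM-positive cells. Most of the difference lay in Dcn, which encodes decorin, and Col1a1, a chain of fibrillar collagen. Dcn averaged 6.43 ± 1.75 CPM in depleted and 1316 ± 499 CPM in control EpCAM-negative cells, and Col1a1 34.8 ± 15.95 and 1544 ± 669 CPM (SD, n = 6 each). Between the control fractions Dcn did not follow Pdgfrb. It averaged 1899 CPM in control EpCAM-positive cells, above its control EpCAM-negative mean, whereas Pdgfrb was lower in the EpCAM-positive cells. Thy1, which encodes the CD90 of the sort, was at 0 counts in control EpCAM-negative cells and averaged under 0.05 CPM in each other group.

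The 14 pericyte and smooth muscle markers summed to 18.5 to 42.6 CPM in depleted EpCAM-negative and 107.9 to 207 CPM in depleted EpCAM-positive libraries. In control tumours they summed to 189 to 508 CPM in the EpCAM-negative libraries and 419 to 755 CPM in the EpCAM-positive ones. Steap4 gave the largest part of the control sums, with 240.4 ± 111 CPM in the EpCAM-negative cells and 284 ± 153 CPM in the EpCAM-positive ones (SD, n = 6 each). Some markers of the list were low: Rgs5 averaged 0.327 CPM at most, Cspg4 0.989 CPM at most, and Kcnj8 and Abcc9 had no count in control EpCAM-negative cells. Others were not. In control EpCAM-positive cells every marker had counts, 4 of the 14 reached 10 CPM and 7 were under 1 CPM. Notch3 was the most abundant marker of the list in depleted EpCAM-positive cells, at 80.5 CPM. The part of fibroblasts or pericytes in the Pdgfrb level was not tested.

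The depleted EpCAM-positive library numbered 4 stood apart in Pdgfrb, with 2.79 CPM against 0.853 to 1.24 CPM in the other 5. Among control libraries, replicate 1 was lowest in either fraction, at 568 CPM in the EpCAM-negative cells and 234 CPM in the EpCAM-positive ones. Leaving out both of these control libraries changed no call of the 6 genes in the 6 comparisons it touches.

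Pdgfa encodes the PDGF-A chain, a ligand of the alpha receptor. It had a lowest, median and highest level of 191, 208 and 252 CPM in depleted EpCAM-negative cells and 103, 107 and 129 CPM in depleted EpCAM-positive cells. In control tumours these were 110.3, 130.1 and 158 CPM in the EpCAM-negative cells and 51.3, 79.4 and 82.3 CPM in the EpCAM-positive ones. Culture had 52.9 and 46.6 CPM. Depleted EpCAM-negative cells stood above every other library of the series, and Pdgfa was the only gene of the 6 that was higher in depleted than in control tumours. That log2 difference was 0.69 ± 0.10 in EpCAM-negative cells (edgeR, adjusted p = 3.71e-06) and 0.57 ± 0.10 in EpCAM-positive cells (edgeR, adjusted p = 6.80e-05). EpCAM-negative cells were higher by 0.96 ± 0.10 in depleted tumours (edgeR, adjusted p = 5.68e-08) and by 0.83 ± 0.10 in control tumours (edgeR, adjusted p = 6.23e-07), on the log2 scale.

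Pdgfb encodes the PDGF-B chain, which endothelial cells and platelets also make. Its lowest, median and highest levels were 1.09, 6.12 and 9.22 CPM in depleted EpCAM-negative cells and 14.1, 15.6 and 18.5 CPM in depleted EpCAM-positive cells. In control tumours they were 2.68, 4.81 and 10.4 CPM in the EpCAM-negative cells and 7.40, 13.8 and 25.1 CPM in the EpCAM-positive ones. The culture libraries, with 23.3 and 22.5 CPM, were above all tumour libraries except 1 of the control EpCAM-positive ones. EpCAM-negative cells were lower by a log2 difference of -1.502 ± 0.37 in depleted tumours, where the fractions did not overlap (edgeR, adjusted p = 0.00303). In control tumours the fractions overlapped and the log2 difference was -1.52 ± 0.37 (edgeR, adjusted p = 0.00261). Between treatments Pdgfb did not pass the test, with log2 differences of 0.07 ± 0.37 in the EpCAM-negative fraction and 0.05 ± 0.36 in the EpCAM-positive one (edgeR, adjusted p = 0.903 and 0.933).

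Residual Epcam moved with Pdgfb in part within depleted EpCAM-negative cells. Replicates 2 and 5, with 1.09 and 2.30 CPM of Pdgfb, held 40.0 and 87.1 CPM of Epcam, while the other 4, with 5.47 to 9.22 CPM of Pdgfb, held 115 to 284 CPM. Among these 4, replicate 4 had the most Pdgfb and the least Epcam. Control EpCAM-negative cells had a similar mean of Pdgfb, 5.30 against 5.60 CPM, with only 1.06 to 2.39 CPM of Epcam. There replicate 3 had the most Pdgfb, 10.4 CPM, and the least Epcam, 1.06 CPM. Endothelial markers were low, with 14 genes summing to means of 21.4, 43.2, 8.67 and 22.2 CPM in depleted EpCAM-negative, depleted EpCAM-positive, control EpCAM-negative and control EpCAM-positive cells. The 8 platelet markers summed to means of 5.01 to 8.16 CPM in the 4 tumour groups and 13.5 CPM in culture. The part of any of these in the Pdgfb level was not tested.

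Pdgfc encodes PDGF-C, a latent ligand of the alpha receptor. It had a lowest, median and highest level of 84.4, 109.6 and 132 CPM in depleted EpCAM-negative cells and 100.3, 110.7 and 136 CPM in depleted EpCAM-positive cells. The corresponding levels in control tumours were 71.4, 105 and 132 CPM in the EpCAM-negative cells and 142, 200.1 and 219 CPM in the EpCAM-positive ones. The cultures had 8.78 and 7.32 CPM. The control EpCAM-positive libraries were thus above all others, and the 3 remaining tumour groups overlapped. Pdgfc was lower in EpCAM-negative cells of control tumours by a log2 difference of -0.83 ± 0.13 (edgeR, adjusted p = 2.41e-05). In depleted tumours the difference was -0.07 ± 0.13 (edgeR, adjusted p = 0.774), with a 95% interval of -0.34 to 0.20. EpCAM-positive cells had less Pdgfc in depleted than in control tumours, by a log2 difference of -0.73 ± 0.13 (edgeR, adjusted p = 7.52e-05), and in EpCAM-negative cells the difference was 0.04 ± 0.13 (edgeR, adjusted p = 0.836).

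Pdgfd, the gene of the latent beta receptor ligand PDGF-D, was near the limit of detection. Counts ran from 0 to 89 in the tumour libraries and were 67 and 215 in culture. Of 6 libraries in each group, 2 of depleted EpCAM-negative, 2 of depleted EpCAM-positive and 1 of control EpCAM-positive cells had no count, which allows up to 0.167 CPM. Means were 0.354 ± 0.353, 0.456 ± 0.580, 1.11 ± 1.01 and 1.16 ± 0.894 CPM in depleted EpCAM-negative, depleted EpCAM-positive, control EpCAM-negative and control EpCAM-positive cells (SD, n = 6 each). All 4 tumour groups overlapped. No comparison among them passed the test, and the SE of each log2 difference was 0.96 or more. Changes of several-fold were therefore not detectable with these counts and this spread between libraries.

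**Figure D2:**
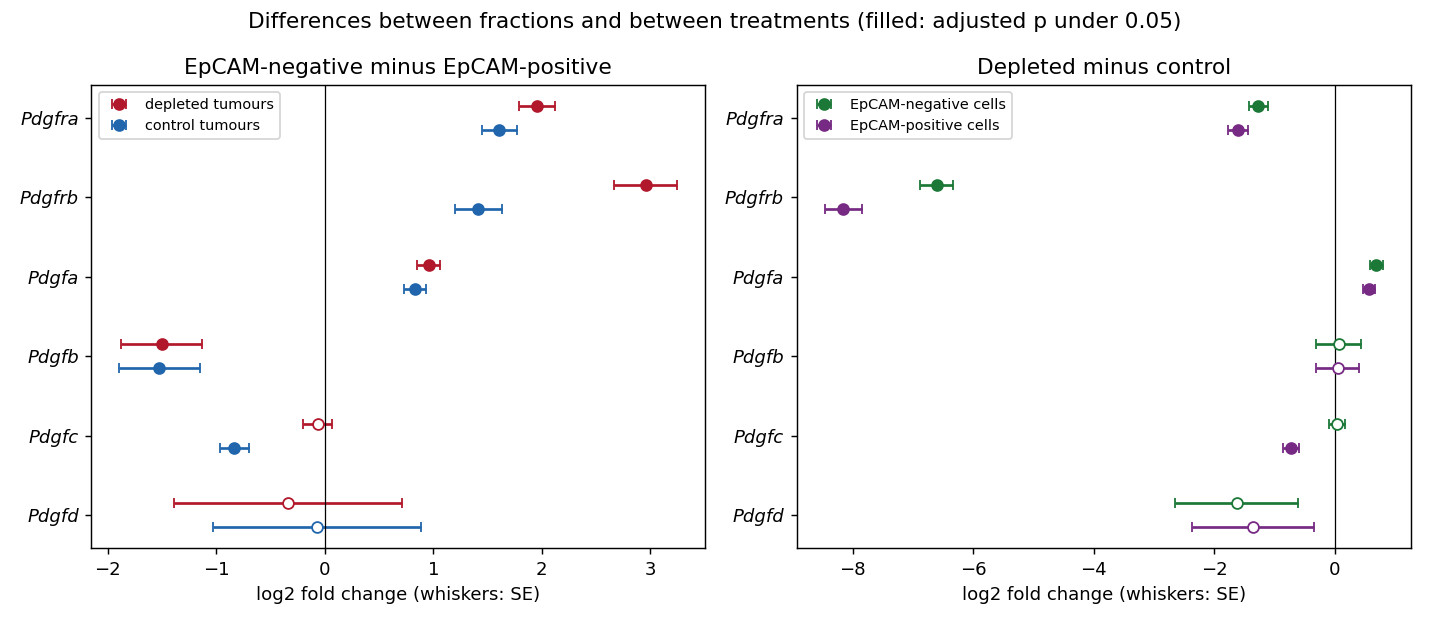
Log2 fold change of each gene with its SE, between fractions within each treatment (left) and between treatments within each fraction (right); filled points have an adjusted p under 0.05. The left panel shows Pdgfrb at 2.96 in depleted and 1.41 in control tumours and Pdgfc at -0.07 and -0.83, and the right panel shows Pdgfrb at -6.61 and -8.15.

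Of the 6 genes, 4 differed between fractions in depleted tumours, where 28.5% of all features did, and 5 in control tumours, where 27.9% did (edgeR, adjusted p under 0.05). In depleted tumours the fractions did not overlap for 3 genes that were higher in EpCAM-negative cells and 1 that was lower, against 7.10% and 8.45% of all features. In control tumours the numbers were also 3 and 1, against 6.31% and 7.10%. Between treatments 3 of 6 differed in EpCAM-negative cells (45.1% of all features) and 4 of 6 in EpCAM-positive cells (40.0%). In EpCAM-negative cells 2 genes were lower and 1 higher in depleted tumours without overlap (14.5% and 10.4% of all features), and in EpCAM-positive cells 3 and 1 (12.5% and 9.21%). The share of the 6 genes that differed between treatments in EpCAM-negative cells was thus near the background, and what set Pdgfrb apart was the size of its change.

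Whether the difference between fractions itself depended on treatment was tested as an interaction. It passed for 2 of 6 genes, against 18.0% of all features. The log2 difference between fractions was larger in depleted than in control tumours by 1.54 ± 0.36 for Pdgfrb (edgeR, adjusted p = 0.00351). For Pdgfc it was 0.77 ± 0.19 (edgeR, adjusted p = 0.00449), since the lower level in EpCAM-negative cells was measured in control tumours alone. The Pdgfrb value depends on depleted EpCAM-positive cells, where Pdgfrb had only 22 to 52 counts per library. The interaction of Pdgfra was 0.34 ± 0.23 and did not pass (edgeR, adjusted p = 0.338), with a 95% interval of -0.12 to 0.81. Those of Pdgfa, Pdgfb and Pdgfd had adjusted p of 0.631 or more (edgeR).

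To compare the genes with each other, CPM was divided by exon length in kilobases (RPKM). Pdgfra then averaged 11.2 ± 2.50, 2.88 ± 0.588, 26.9 ± 4.69 and 8.81 ± 1.84 RPKM in depleted EpCAM-negative, depleted EpCAM-positive, control EpCAM-negative and control EpCAM-positive cells (SD, n = 6 each). Pdgfrb averaged 1.99 ± 0.623, 0.260 ± 0.125, 194 ± 57.3 and 72.9 ± 17.2 RPKM in the same order. The alpha receptor was therefore the main receptor RNA in depleted tumours and the beta receptor in control tumours. The ratio of Pdgfrb to Pdgfra had a median of 0.197 in depleted EpCAM-negative and 0.0780 in depleted EpCAM-positive cells, against 7.58 in control EpCAM-negative and 9.66 in control EpCAM-positive cells. Its ranges did not meet: it was at most 0.281 in depleted and at least 3.59 in control libraries, and the cultures, at 0.118 and 0.138, were like the depleted tumours.

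Among the ligands, Pdgfa and Pdgfc made up over 90% of the summed RPKM in every tumour group. Pdgfa was the larger of these in depleted EpCAM-negative cells (75.3% ± 3.12, SD, n = 6), depleted EpCAM-positive cells (57.5% ± 3.75) and control EpCAM-negative cells (65.6% ± 6.95). In depleted EpCAM-positive cells Pdgfa and Pdgfc had similar CPM, with means of 111 and 114. Their order there rests on the lengths used, 3119 bases for Pdgfa and 5089 bases for Pdgfc. In control EpCAM-positive cells Pdgfc was the larger, with 56.9% ± 6.14 against 37.0% ± 5.90 for Pdgfa. Pdgfb had 1.40% to 6.12% on average in the tumour groups and 22.7% in culture, where Pdgfc had 6.51%. Pdgfd had 0.563% or less in tumours and 5.07% in culture.

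**Figure D3:**
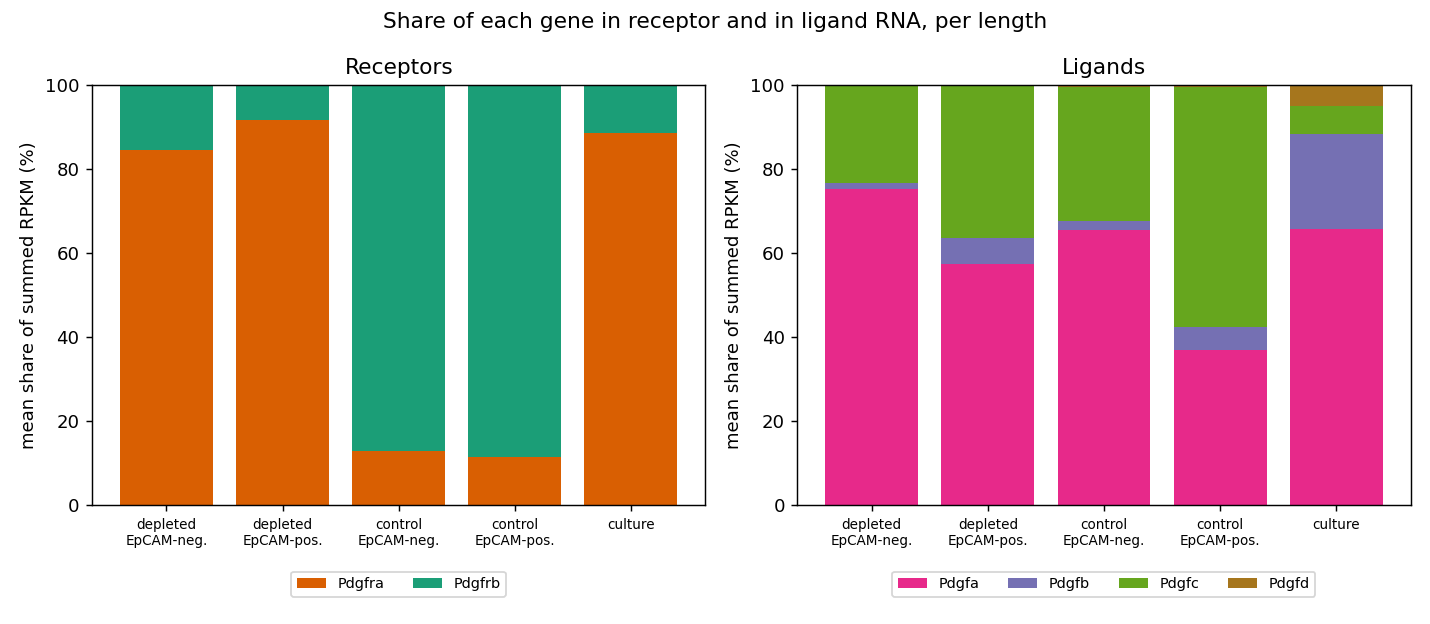
Mean share of each gene in the summed RPKM of the receptors (left) and of the ligands (right), in the 4 tumour groups (6 libraries each) and in culture (2 libraries). Pdgfrb made up 15.5% and 8.30% of receptor RNA in depleted EpCAM-negative and EpCAM-positive cells and 87.1% and 88.5% in the corresponding control cells; among ligands, Pdgfc took the larger share, 56.9%, in control EpCAM-positive cells.

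The line in culture served as the reference for the sorted tumour cells, with 2 libraries that may be technical repeats. The 4 comparisons below share these 2 libraries. All 6 genes differed from culture in depleted EpCAM-negative cells (42.4% of all features), 3 in depleted EpCAM-positive (39.5%), 5 in control EpCAM-negative (50.7%) and 4 in control EpCAM-positive cells (50.2%). In depleted EpCAM-negative cells 4 genes were higher and 2 lower, against 21.8% and 20.6% of all features. In depleted EpCAM-positive cells 3 were higher and 0 lower (20.9% and 18.6%), with 3 higher and 2 lower without overlap (23.1% and 22.6%). In control EpCAM-negative cells 4 were higher and 1 lower (26.5% and 24.2%), with the same numbers without overlap (28.4% and 27.5%). In control EpCAM-positive cells 4 were higher and 0 lower (27.8% and 22.4%), with 3 and 0 without overlap (29.1% and 25.6%). Pdgfra, Pdgfa and Pdgfc were higher than culture in all 4 tumour groups. Pdgfc differed most evenly, with log2 differences of 3.76 ± 0.24, 3.83 ± 0.24, 3.72 ± 0.24 and 4.55 ± 0.25 in depleted EpCAM-negative, depleted EpCAM-positive, control EpCAM-negative and control EpCAM-positive cells. For Pdgfra the log2 differences were 3.10, 1.14, 4.36 and 2.75 in the same order, and for Pdgfa 2.12, 1.16, 1.43 and 0.59.

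Pdgfrb was higher than culture by 3.58 ± 0.45 on the log2 scale in depleted EpCAM-negative cells and by 10.19 ± 0.56 and 8.77 ± 0.54 in control EpCAM-negative and EpCAM-positive cells. In depleted EpCAM-positive cells the difference was 0.62 ± 0.48 and did not pass (edgeR, adjusted p = 0.331). Pdgfb was lower than culture in the EpCAM-negative fraction of depleted tumours (log2 difference -2.04, edgeR, adjusted p = 0.000984) and of control tumours (-2.11, edgeR, adjusted p = 0.000485). In depleted EpCAM-positive cells its log2 difference of -0.54 did not pass with all groups in the fit (edgeR, adjusted p = 0.415). With only these cells and the cultures in the fit it was -0.56 and passed (edgeR, adjusted p = 0.00692).

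Some calls against culture rested on 1 library. Pdgfd was lower in depleted EpCAM-negative cells than in culture by a log2 difference of -3.42 ± 1.25 (edgeR, adjusted p = 0.0299), but without culture replicate 2 this was -2.63 (edgeR, adjusted p = 0.234). In depleted EpCAM-positive cells the difference was -3.08 (edgeR, adjusted p = 0.0521), and without replicate 2 or replicate 6 of these cells it was -3.71 or -3.55 and passed (edgeR, adjusted p = 0.0282 and 0.0385). Pdgfa in control EpCAM-positive cells was higher than culture by 0.59 ± 0.15 (edgeR, adjusted p = 0.00173), and by 0.48 without culture replicate 2 (edgeR, adjusted p = 0.0630).

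Pdgfra and Pdgfc, a receptor and its ligand that were both higher than culture in all 4 tumour groups, are shown by the 250 bases before their RefSeq start on GRCm38.p6. Neither window overlapped an annotated exon of the 6 PDGF genes, and exons of other genes were not checked. The Pdgfra window is chr5:75152001-75152250 and the Pdgfc window chr3:81036166-81036415, both on the plus strand and written 5′ to 3′.
Pdgfra: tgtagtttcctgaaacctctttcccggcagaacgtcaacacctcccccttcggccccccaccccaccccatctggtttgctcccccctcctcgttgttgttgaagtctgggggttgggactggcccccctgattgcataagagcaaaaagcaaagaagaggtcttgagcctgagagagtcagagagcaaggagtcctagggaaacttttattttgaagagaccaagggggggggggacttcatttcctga
Pdgfc: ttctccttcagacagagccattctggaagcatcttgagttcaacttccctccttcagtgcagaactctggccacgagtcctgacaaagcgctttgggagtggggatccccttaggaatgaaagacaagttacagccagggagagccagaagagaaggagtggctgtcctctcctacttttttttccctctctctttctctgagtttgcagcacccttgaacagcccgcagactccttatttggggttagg
Both strands of each window were searched for CAGGTG (an E-box bound by Zeb and Snail factors), TGANTCA (the AP-1 site), GGGCGG (the GC box) and TTCNNNGAA (the STAT site). None of these letters occurred in either window, so nothing is in capitals. Over all 32851 windows of the same length, 17.2% held CAGGTG, 6.75% TGANTCA, 32.7% GGGCGG and 7.02% TTCNNNGAA. The Pdgfd window held no match either, and the 2 Pdgfa windows, both overlapping an annotated exon, held 1 and 2 matches to GGGCGG. No window was available for Pdgfrb or Pdgfb.

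Genes around the receptors and ligands were read from 5 lists, each by the count that passed the edgeR test at an adjusted p under 0.05. In the list of ligand processing and binding, 11 of 12 genes were tested. EpCAM-negative cells had 1 higher and 5 lower in depleted tumours, with a median log2 difference of -1.20 against 0.01 for all features, of which 14.2% were higher and 14.3% lower. In control tumours 6 were higher and 2 lower, with a median of 0.72 against -0.01, and 13.3% and 14.5% of all features. St14 encodes matriptase, which activates PDGF-D, and was lower in EpCAM-negative cells under both treatments, by log2 differences of -3.73 ± 0.26 in depleted and -3.89 ± 0.27 in control tumours. Pcsk6, a furin-type convertase, was lower by -3.59 ± 0.32 and -1.52 ± 0.30 in the same order. Plat encodes the tissue plasminogen activator that releases active PDGF-C, and averaged 305 ± 85.7 and 312 ± 33.3 CPM in depleted EpCAM-negative and EpCAM-positive cells, against 504 ± 73.4 and 191 ± 55.9 CPM in the corresponding control cells (SD, n = 6 each).

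The interaction was negative for 7 of these 11 genes and positive for 0, among them Pdgfrl (-2.38 ± 0.22), the kinase-less receptor-like protein, Plau (-2.40 ± 0.30), the urokinase that can activate PDGF-D, Plat (-1.43 ± 0.26) and the co-receptor Nrp1 (-0.96 ± 0.14). Of all features, 8.69% had a negative and 9.33% a positive interaction that passed. Between treatments 2 were higher and 5 lower in depleted EpCAM-negative cells (21.9% and 23.2% of all features), and 4 higher and 1 lower in depleted EpCAM-positive cells (17.6% and 22.4%). Sparc, a matrix protein that binds PDGF-B, was lower in depleted tumours in both fractions, by log2 differences of -1.70 ± 0.11 in the EpCAM-negative fraction and -0.89 ± 0.11 in the EpCAM-positive one.

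Genes that work inside the cell below the receptors were given by 29 adapters, effectors and negative regulators. The EpCAM-negative fraction of depleted tumours had 5 higher and 5 lower (14.2% and 14.3% of all features), and that of control tumours 5 higher and 8 lower (13.3% and 14.5%). Between treatments 11 were higher and 12 lower in depleted EpCAM-negative cells (21.9% and 23.2% of all features) and 3 higher and 11 lower in depleted EpCAM-positive cells (17.6% and 22.4%). With total counts as library size the EpCAM-negative cells had 12 higher and 11 lower. Pik3r1, the regulatory subunit of PI 3-kinase that docks on both receptors, was lower in depleted than in control tumours, by log2 differences of -1.43 ± 0.15 in the EpCAM-negative fraction and -1.63 ± 0.15 in the EpCAM-positive one, and the docking protein Gab1 by -1.09 ± 0.12 and -1.10 ± 0.11, in the same order.

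Among 30 growth factor response genes, the EpCAM-negative fraction of depleted tumours had 18 higher and 1 lower (14.2% and 14.3% of all features), with a median log2 difference of 0.64. In control tumours 8 were higher and 0 lower (13.3% and 14.5%), with a median of 0.32. In depleted tumours Dusp1 (1.76 ± 0.21) and Dusp5 (1.75 ± 0.20), phosphatases of MAP kinases, and Egr1 (1.01 ± 0.14), an immediate-early factor, were higher. Spry1, a feedback inhibitor of receptor tyrosine kinases, was lower in the EpCAM-negative fraction of depleted tumours (-0.91 ± 0.12) and higher in those of control tumours (0.85 ± 0.12), with an interaction of -1.76 ± 0.18 (edgeR, adjusted p = 9.60e-08). In EpCAM-positive cells 6 were higher and 16 lower in depleted than in control tumours (17.6% and 22.4% of all features), with a median of -0.73 against -0.02 for all features, among them Fos (-1.19 ± 0.15). In EpCAM-negative cells 6 were higher and 11 lower (21.9% and 23.2%), and with total counts as library size 9 were higher and 7 lower, the median moving to 0.03 against -0.16 with TMM. Many receptors induce these genes, so their counts are not specific to PDGF.

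Kin of the PDGF receptors and their ligands were given by the 14 of 16 listed genes that could be matched by symbol. In EpCAM-negative cells 5 were higher and 2 lower in depleted tumours (14.2% and 14.3% of all features), and 3 higher and 6 lower in control tumours (13.3% and 14.5%). Between treatments 4 were higher and 3 lower in depleted EpCAM-negative cells (21.9% and 23.2%), and 1 higher and 6 lower in depleted EpCAM-positive cells (17.6% and 22.4%). Csf1r, the kin receptor that marks macrophages, averaged 17.1 ± 5.99 and 70.5 ± 12.2 CPM in depleted EpCAM-negative and EpCAM-positive cells, against 4.89 ± 1.76 and 85.4 ± 38.3 CPM in the corresponding control cells (SD, n = 6 each). The 16 macrophage markers, Csf1r among them, summed to means of 172, 209.8, 32.9 and 129 CPM in the same order. Csf1r was itself the most abundant of them in both EpCAM-positive groups. In EpCAM-positive cells 8 of the 16 were higher and 0 lower in depleted than in control tumours (17.6% and 22.4% of all features). Csf1r did not pass there, with a log2 difference of -0.28 ± 0.26 (edgeR, adjusted p = 0.426). The part of macrophages in the Csf1r level was not tested. Pgf, a ligand of the VEGF receptor Flt1, was lower in EpCAM-negative cells by log2 differences of -2.10 ± 0.22 in depleted and -1.26 ± 0.22 in control tumours.

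The EMT transcription factors, which accompany receptor expression in carcinoma cells, included 12 tested genes. In EpCAM-negative cells 6 were higher and 1 lower in depleted tumours (14.2% and 14.3% of all features), and 4 higher and 3 lower in control tumours (13.3% and 14.5%). Zeb1, a repressor of epithelial genes, averaged 86.2 ± 12.4 and 4.61 ± 2.05 CPM in depleted EpCAM-negative and EpCAM-positive cells, against 84.8 ± 9.14 and 25.4 ± 6.24 CPM in the corresponding control cells (SD, n = 6 each). Its log2 difference between fractions was 4.22 ± 0.25 in depleted and 1.74 ± 0.21 in control tumours, with an interaction of 2.49 ± 0.31 (edgeR, adjusted p = 2.61e-06). Like Zeb1, Pdgfrb had the larger log2 difference between fractions in depleted tumours. Between treatments in EpCAM-negative cells, the log2 difference was -6.61 for Pdgfrb and 0.02 ± 0.21 for Zeb1 (edgeR, adjusted p = 0.939 for Zeb1). In EpCAM-positive cells both genes were lower in depleted tumours, by -8.15 for Pdgfrb and -2.46 ± 0.23 for Zeb1 (edgeR, adjusted p = 4.31e-09 for Zeb1). Between treatments 1 factor was higher and 5 lower in depleted EpCAM-negative cells (21.9% and 23.2% of all features), and 0 were higher and 8 lower in depleted EpCAM-positive cells (17.6% and 22.4%).

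**Figure D4:**
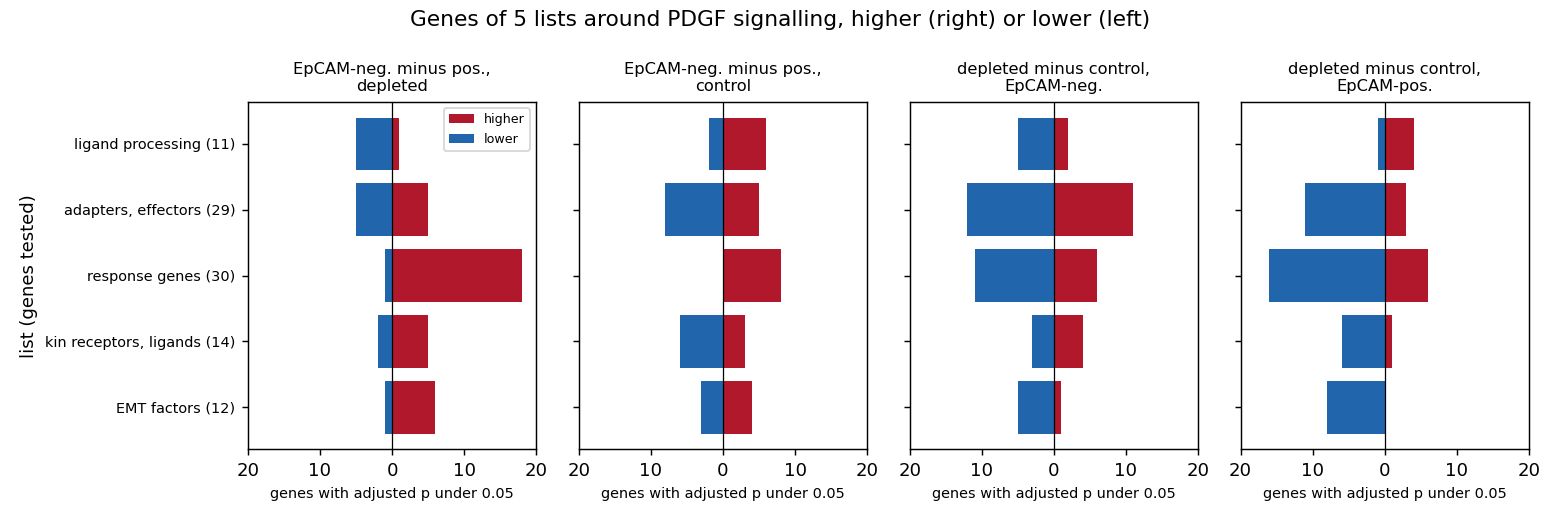
Number of genes of each list with an adjusted p under 0.05 that were higher (right, red) or lower (left, blue), in EpCAM-negative against EpCAM-positive cells of each treatment and in depleted against control tumours of each fraction; the number tested is in parentheses. Of the response genes that passed between fractions, 18 were higher and 1 lower in depleted and 8 and 0 in control tumours, and the EMT factors were 0 to 8 in depleted against control EpCAM-positive cells.

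Within groups the 6 genes did not vary as a set. After subtraction of each group's mean log2 CPM, the deviations of Pdgfra and Pdgfrb had r = -0.003 over the 24 tumour libraries, although their levels had r = 0.82 over all 26 libraries. Those of Pdgfrb and Pdgfc had r = 0.70, those of Pdgfb and Pdgfc 0.61 and those of Pdgfrb and Pdgfb 0.55. Taken by treatment, Pdgfrb and Pdgfc had r = 0.53 over the 12 depleted and 0.88 over the 12 control libraries. Control replicate 1 was lowest of its group in all 3 of these genes in either fraction, with 71.4 and 142 CPM of Pdgfc and 2.68 and 7.40 CPM of Pdgfb in EpCAM-negative and EpCAM-positive cells. These values describe libraries that share depth and scaling, and 15 pairs of genes were compared. Libraries of both fractions may also come from the same tumours, so they may not be independent.

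**Figure D5:**
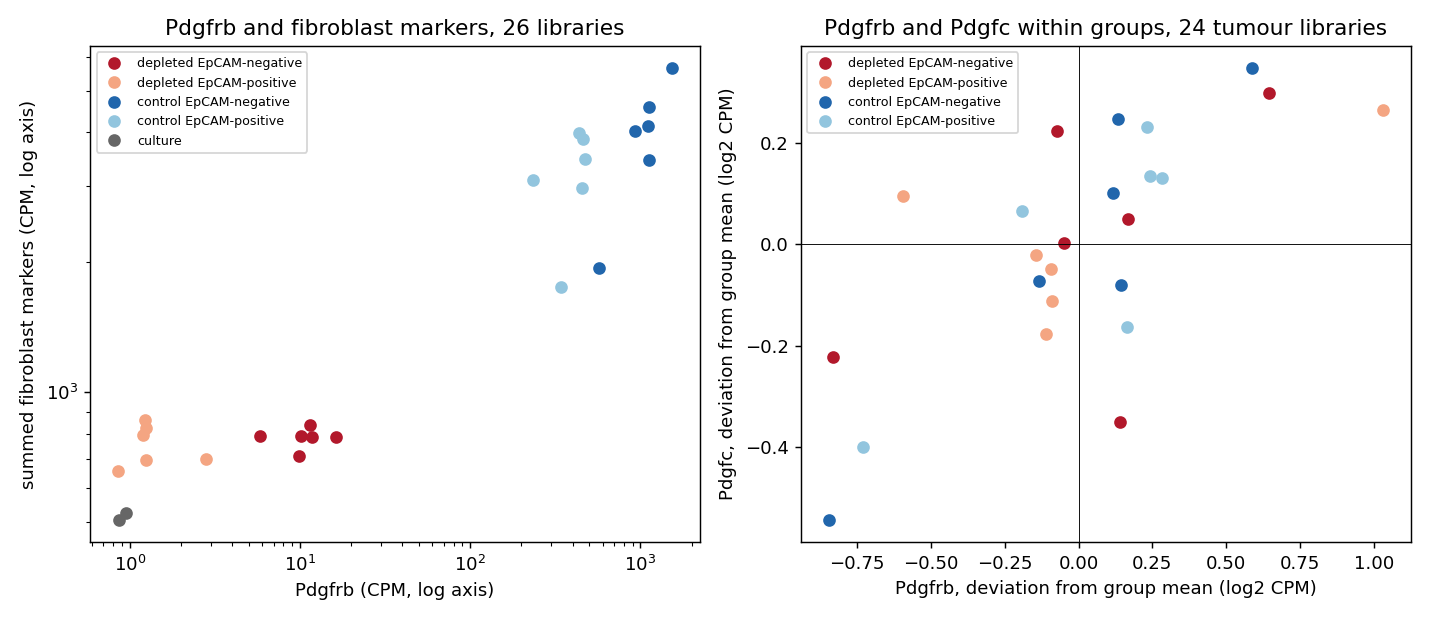
Left, summed CPM of 16 fibroblast markers against Pdgfrb CPM in 26 libraries, both on log axes; right, deviation of Pdgfc against that of Pdgfrb from the group mean in log2 CPM, 24 tumour libraries, colored by group. The control libraries lie apart from the others at 234 CPM of Pdgfrb and 1753 CPM of markers or more, and within groups Pdgfrb and Pdgfc deviated together with r = 0.70.

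For each gene the 5 features with the most similar pattern were found by Pearson's r of log2 CPM over all 26 libraries, among 9908 or 9909 features with at least 10 CPM in some group. Such an r mostly reflects differences between the 5 groups, and the r within groups is given for the closest feature. Prelp was closest to Pdgfrb (r = 0.99, within groups 0.57), and averaged 4.39 ± 1.41 and 0.923 ± 0.472 CPM in depleted EpCAM-negative and EpCAM-positive cells, against 581 ± 113 and 198 ± 46.0 CPM in the corresponding control cells. Plcb1, Masp1, Angpt1 and Sord followed. Pkd1 was closest to Pdgfra (r = 0.97, within groups 0.29), before Fmnl3, Plxdc1, Efemp2 and Ppm1f. For Pdgfa it was Ncam1 (r = 0.96, within groups 0.69), before Crabp2, Itga5, Cavin2 and Dmpk. Pdgfc was most like Dtx3l (r = 0.97, within groups 0.47), before Vwa5a, Zfp949, Anxa8 and Parp14, and Pdgfb most like Bspry (r = 0.91, within groups 0.75), before Cobl, Arhgap40, Fgfbp1 and Nipal4. No feature was as close to Pdgfd, for which Gcc1 had r = 0.76 on few counts.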

How the data were processed

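RNA from 26 samples had been amplified from small amounts of total RNA and sequenced as single reads, per the labels' protocols. The authors deposited raw counts per gene, with STAR and mm9 named in the submitters' processing notes. They also deposited a log2-like table, for which the submitters' processing notes name DESeq2 1.22.2; it was not used in any test. The counting tool, annotation, strand setting and STAR version were not given, so overlapping genes cannot be told apart. Identifiers of 47224 of 47729 mouse genes were matched to GENCODE M21 symbols; exon lengths came from it, and promoter windows from RefSeq.

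Counts were scaled by TMM, filtered by filterByExpr and fitted in edgeR 4.0.16 (R 4.3.3, quasi-likelihood) with 1 coefficient per group over all 26 libraries. From the fit 9 contrasts were tested, with Benjamini-Hochberg adjustment over 16637 features and a threshold of 0.05. The SE is the log2 fold change over the root of F, and 95% intervals use the t distribution. The script was tested on simulated data. Log2 CPM used a prior count of 2. No libraries agreed within sampling noise. Nothing in the labels says that the culture replicates were grown separately, so the spread between separate cultures may not be measured. The p-values against culture use a spread estimated over all groups, mostly from tumour libraries.

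The 6 genes were named whatever their values. Of each list, up to 4 genes with the smallest p in a comparison could be named; not all of them are, the choice among them was made with their values in view, and a gene named from 1 comparison may be given in others. The members and lists were chosen with earlier results of these data known. Alternatives were other scalings, filters, DESeq2 1.42.0, the groups compared alone, a block on replicate number, and each library left out. Library totals of 17559520 to 38740143 counts limit low genes. The limit given for a count of 0 covers counting error only; SEs and p-values include the spread between libraries. The result for 1 gene of the adapter list is not reported here.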

Additional observations from a re-analysis of the deposited data

Results flagged for a closer look

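In the level of single genes, 3 of 24 groups held a library far from the rest of its group, where chance gives about 1 in 20. Pdgfrb was 2.79 CPM in depleted EpCAM-positive replicate 4, and the next library had 1.24 CPM. Pdgfa was 51.3 CPM in control EpCAM-positive replicate 6, and the next lowest had 77.4 CPM. Pdgfb was 10.4 CPM in control EpCAM-negative replicate 3, and the next had 5.29 CPM. None of these libraries decided a call of its gene when left out.

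The log2 difference between EpCAM-negative and EpCAM-positive cells differed between treatments for 2 genes. For Pdgfrb it was 2.96 in depleted and 1.41 in control tumours, an interaction of 1.54 ± 0.36 (edgeR, adjusted p = 0.00351). For Pdgfc it was -0.07 in depleted and -0.83 in control tumours, an interaction of 0.77 ± 0.19 (edgeR, adjusted p = 0.00449).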

How the results depend on the processing

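No log2 difference that passed the test in either setting changed sign under any alternative; among those that did not pass, some of Pdgfb, Pdgfc and Pdgfd did. Another scaling (DESeq2's size factors), DESeq2's own test and no filter on low counts each kept the call of all 54 values, and every count of called features stayed within 1.5 times its value. Against culture, Pdgfd in depleted EpCAM-positive cells (-3.08) passed with total counts as library size (-3.23), chosen after seeing the data, with at least 1 CPM in 6 libraries (-3.09) and with only the groups compared (-3.10). Pdgfb there was -0.56 and passed with only the groups compared. Leaving out each library in turn left the call of 620 values as it was, and 2 lost and 2 gained their call. These were Pdgfd in depleted EpCAM-negative cells against culture, from -4.09 to -2.63, Pdgfd in depleted EpCAM-positive cells, from -3.71 to -2.28, and Pdgfa in control EpCAM-positive cells, from 0.48 to 0.71. The cause was not tested. With only the groups compared, 1 of 54 values could not be had because Pdgfd was filtered out.

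Total counts as library size moved the median of all features by -0.14 in the difference between fractions of control tumours, 0.17 in the interaction, 0.19 between treatments in EpCAM-negative cells, and -0.13, -0.28 and -0.17 against culture in depleted EpCAM-positive, control EpCAM-negative and control EpCAM-positive cells. The share of calls that were higher was 26.7% against 47.9% with TMM, 75.1% against 51.8%, 65.7% against 48.5%, 41.2% against 52.9% and 36.3% against 52.3% in the first 5 of these comparisons.

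Same-numbered libraries of the fractions had correlated deviations of 0.0497 to 0.172 in control tumours, with 4 of 6 over 0.1, and 0.0175 to 0.0469 in depleted tumours. Each control EpCAM-negative library correlated best with the EpCAM-positive one of its own number (6 of 6). Of the depleted EpCAM-negative libraries, 3 of 6 did. Seen from the EpCAM-positive side, control replicates 5 and 6 correlated best with EpCAM-negative replicate 3 (0.0662 and 0.0940). With their own numbers they had 0.0497 and 0.0704. Any pairing is thus a hint from the data and not the design. With a replicate block no call of the 6 genes changed; Pdgfrb had an interaction of 1.58. Low counts limit Pdgfd.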
